A study of Homo sapiens with 6 samples.

Results

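The ZBTB family of transcription factors was followed in HEK-293T cells that produce RfA1, a squid reflectin, fused to GFP, or GFP alone. Genes were taken whose symbol is ZBTB followed by a number, with or without a letter, and that had at least 10 counts in 3 or more of the 6 libraries. This gave 40 genes of the 41 ZBTB symbols in a table of 16655 genes. The question was whether the lower level of ZBTB48 with RfA1, for which the family was chosen, is shared by its relatives. ZBTB48 was thus picked on this same contrast, so that its values are a description, nothing is read from its own calls, and counts of called members are read without it.

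ZBTB proteins carry an N-terminal BTB (POZ) domain, through which they pair and recruit corepressors such as NCOR1 or the ubiquitin ligase scaffold CUL3. Their C-terminal C2H2 zinc fingers read DNA, and most of them act as repressors in differentiation, the cell cycle and the DNA damage response. ZBTB48, also called TZAP, binds the TTAGGG repeats of long telomeres and promotes telomere trimming, and it also acts as a transcription factor at ordinary promoters.

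The cells are a human embryonic kidney line with the SV40 large T antigen. They were transfected by a standard Lipo3000 protocol and harvested 24 h later, per the labels, as whole dishes of transiently transfected cells for which no sorting is stated. One group of 3 libraries received the empty GFP vector and the other group of 3 the vector for GFP-tagged RfA1, in otherwise unmodified cells. Libraries carry replicate numbers 1 to 3, and no label says that they came from separate transfections, so that p-values measure only the spread between these libraries, which may be technical. In such bulk RNA, fewer cells with a transcript and less of it per cell cannot be told apart. Plasmid transcripts were not analysed here, so that the RfA1 label could not be checked against RfA1 itself.

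The libraries held 10272304 to 11566287 counts. All 8 kidney line markers listed were present in every library, with a summed level of 1156 to 1459 CPM (counts in each 1e6 of the TMM-normalized library) in GFP cells and 1153 to 1527 CPM in RfA1 cells. Of 8 markers of blood, endothelial, liver and fibroblast cells, 5 were in the table and 1, COL1A1, passed the filter on low counts. RfA1 replicate 2 stood apart from its group. The first principal component, with 44.6% of the variance, put it at 10.1, beside GFP replicates 2 and 3 at 18.2 and 12.3, while GFP replicate 1 was at -2.18 and RfA1 replicates 1 and 3 at -16.5 and -22.0. The loadings of genes on this component went with the GC content of their transcripts (Spearman rho 0.75 across genes, which are not independent). Counts of genes past the adjusted p are given with and without this library. So are the log2 fold changes of ZBTB48, ZBTB2, ZBTB11, ZBTB21, ZBTB17, ZBTB7A and ZBTB16.

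ZBTB48 (Gene ID 3104) lies on the plus strand at chr1:6580001-6589280 of GRCh38. Its level was 41.0, 40.6 and 40.8 CPM in the GFP libraries and 21.3, 30.3 and 22.5 CPM in the RfA1 libraries. The 3 GFP libraries were nearly equal and the 3 RfA1 libraries all lay below them, with RfA1 replicate 2 the closest. The means were 40.8 ± 0.21 CPM and 24.7 ± 4.90 CPM (SD, n = 3 each), so that RfA1 cells had 60.5% of the GFP level. The fitted log2 fold change was -0.72 with a standard error of 0.13, the 85th lowest of the 13002 genes tested. It was -0.90 without RfA1 replicate 2.

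The promoters of ZBTB48 and of the 3 relatives with the highest fold changes are shown because these genes stood at the opposite ends of the family. Sequences are RefSeq windows on GRCh38.p14, from 250 bases before to 50 bases after the start site, 5′ to 3′ along the gene. Capitals mark the motif TGACGTCA, the cyclic AMP response element, which was searched for on both strands after the sequences had been seen.

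ZBTB48, chr1:6579744-6580043, plus strand: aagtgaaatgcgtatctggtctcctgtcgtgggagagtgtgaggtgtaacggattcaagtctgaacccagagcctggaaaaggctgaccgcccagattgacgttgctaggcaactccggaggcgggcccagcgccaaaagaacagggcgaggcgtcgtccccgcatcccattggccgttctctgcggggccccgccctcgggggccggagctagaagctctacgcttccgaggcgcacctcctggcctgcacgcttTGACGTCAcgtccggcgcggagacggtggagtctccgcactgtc
ZBTB21, chr21:42010311-42010610, minus strand: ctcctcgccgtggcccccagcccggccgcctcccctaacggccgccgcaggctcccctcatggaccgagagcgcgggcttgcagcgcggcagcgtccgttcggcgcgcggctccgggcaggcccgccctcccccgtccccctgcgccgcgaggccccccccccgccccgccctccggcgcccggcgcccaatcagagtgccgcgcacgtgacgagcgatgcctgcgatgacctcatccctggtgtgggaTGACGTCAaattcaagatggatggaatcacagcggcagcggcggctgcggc
ZBTB11, chr3:101677083-101677382, minus strand: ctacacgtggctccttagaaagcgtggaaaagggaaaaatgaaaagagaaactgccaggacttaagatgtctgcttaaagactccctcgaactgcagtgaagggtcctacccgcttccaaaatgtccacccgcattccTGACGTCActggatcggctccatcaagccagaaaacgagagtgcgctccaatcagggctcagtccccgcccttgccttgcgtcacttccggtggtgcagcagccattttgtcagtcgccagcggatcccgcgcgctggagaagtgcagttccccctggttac
ZBTB2, chr6:151391510-151391809, minus strand: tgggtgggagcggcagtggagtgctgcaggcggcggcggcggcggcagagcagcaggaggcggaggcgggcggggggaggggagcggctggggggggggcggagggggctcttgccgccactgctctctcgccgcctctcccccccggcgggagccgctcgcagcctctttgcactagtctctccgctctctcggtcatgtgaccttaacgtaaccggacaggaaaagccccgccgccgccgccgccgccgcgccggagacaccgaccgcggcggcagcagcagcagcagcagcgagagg

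The motif begins 6 bases after the start site in ZBTB48, 1 base before it in ZBTB21 and 112 bases before it in ZBTB11, and ZBTB2 has no match. So the same letters stand in the promoter of the member with the lowest fold change and of 2 of the 3 members with the highest. Of the 34 members with a promoter in the RefSeq table, these 3 held TGACGTCA (8.82%), against 1.98% of all 27305 promoters and 3.30% of those of 10633 tested genes. Since the motif was picked from the 4 promoters shown, 3 of which hold it, nothing is read from its higher share. TTAGGG, the telomere repeat that ZBTB48 binds, was in 3 member promoters (ZBTB8A, ZBTB21 and ZBTB43, or 8.82%). It was in 8.94% of all promoters and 8.27% of those of tested genes. TCCTGCNA, the site read by ZBTB33 (Kaiso), was in the promoters of ZBTB47 and ZBTB7C (5.88%), against 4.62% of all and 3.60% of those of tested genes. A match is a string of letters, not a measured site.

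A lower level in RfA1 cells was not the rule among the other 39 members. Of these, 25 had a fold change above 0 and 14 below, with a median log2 fold change of 0.08, against -0.0024 over all genes tested. Over all 13002 genes, 50.5% had a fold change below 0. None of the 40 members (0) reached an adjusted p under 0.05 by the quasi-likelihood test of edgeR, which called 0.0769% of the genes tested (10 of 13002). Of the 39 without ZBTB48, DESeq2 and limma on TPM also called 0. At an unadjusted p under 0.05 there were 5 of the 39 members without ZBTB48 (12.8%), against 13.9% of all genes, and 6 (15.0%) with it. Of the 5, 3 were higher with RfA1, where 7.3% of all genes were, and 2 were lower, where 6.64% were. Without ZBTB48 the groups did not overlap for 6 of the 39 members (15.4%), and for 17.9% of all genes. Of these 6, 4 were higher and 2 lower with RfA1, against 9.86% and 8.01% of all genes. With ZBTB48 there were 7 such members (17.5%). The shares without ZBTB48 were near those of all genes. A log2 fold change of -0.5 or lower was seen in ZBTB48 alone among the members, and in 1.98% of all genes, but the gene was chosen on this contrast. ZBTB3 also reached it without GFP replicate 2 (-0.51) or without RfA1 replicate 1 (-0.62), and ZBTB20 without RfA1 replicate 3 (-0.64), both with few counts.

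In single libraries, ZBTB48 was 0.93, 0.43 and 0.85 log2 units below its GFP mean in RfA1 replicates 1, 2 and 3. The median of the other 39 members was 0.10, -0.01 and 0.12 in the same libraries, and 0.04, -0.05 and 0.02 in the GFP libraries. ZBTB48 was the lowest of the 40 members in RfA1 replicates 1 and 3. In RfA1 replicate 2 it was the 5th lowest, after ZBTB3 at -0.57, ZBTB16 at -0.53, ZBTB20 at -0.45 and ZBTB26 at -0.44. Of these 4, ZBTB3 and ZBTB20 had the fewest counts of all members.

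**Figure D1:**
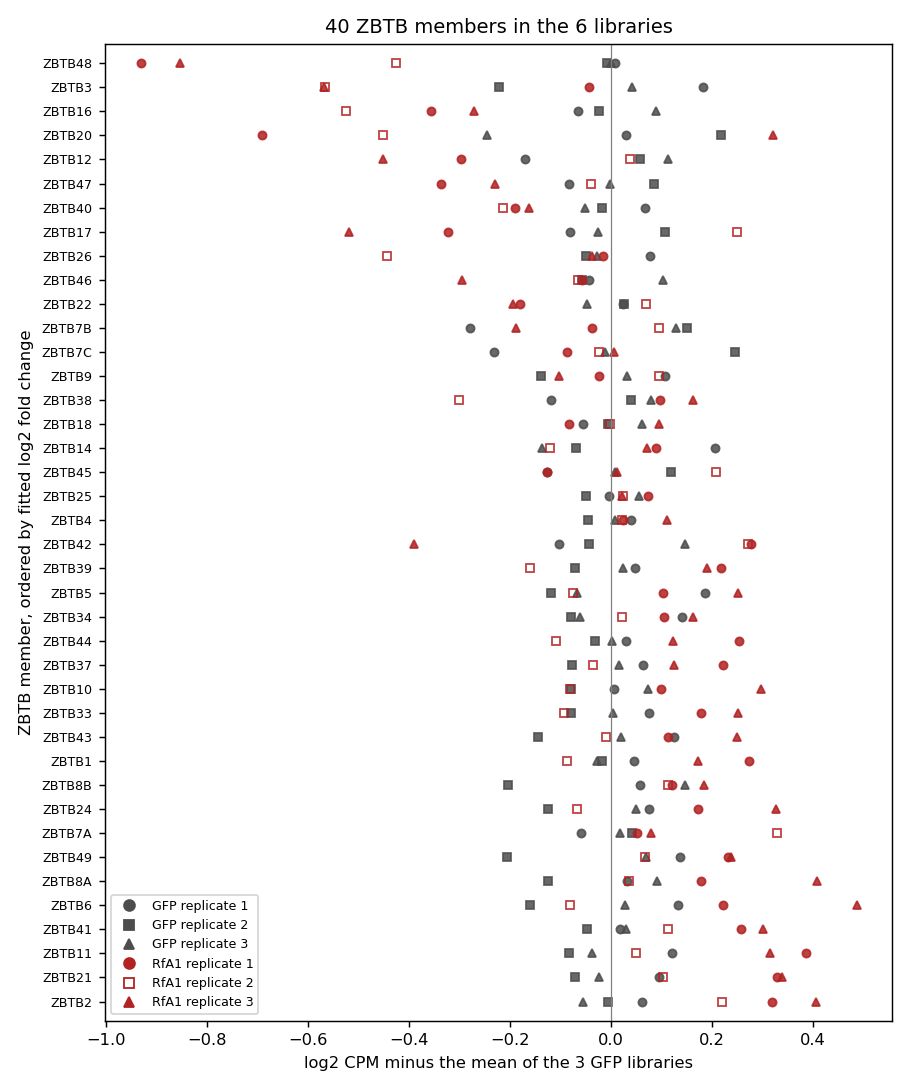
The 40 members are ordered by fitted log2 fold change, and each point is the log2 CPM of 1 library minus the mean of the 3 GFP libraries. ZBTB48 stood at -0.93, -0.43 and -0.85 in the RfA1 libraries, while the other members were spread on both sides of 0, with RfA1 replicate 2 (open squares) often apart from RfA1 replicates 1 and 3.

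Among the members, ZBTB48, ZBTB10 and ZBTB40 are those linked to telomeres. ZBTB10 binds variant telomere repeats, and its level was 29.5, 27.8 and 30.9 CPM in GFP cells and 31.5, 27.7 and 36.1 CPM in RfA1 cells. Its groups overlapped, and its log2 fold change was 0.11 with a standard error of 0.11 (edgeR adjusted p = 0.645). ZBTB40, a relative reported at telomeres, was at 82.2, 77.5 and 75.7 CPM with GFP and at 68.7, 67.6 and 70.0 CPM with RfA1. All 3 RfA1 libraries lay below the 3 GFP libraries, by a smaller margin than for ZBTB48. Its log2 fold change was -0.19 with a standard error of 0.08 (edgeR adjusted p = 0.326, n = 3 each), which did not pass the threshold. Of the 3 telomere factors, ZBTB48 and ZBTB40 were thus lower in every RfA1 library, and ZBTB10 was not.

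The 3 members with the highest fold changes were ZBTB2, ZBTB21 and ZBTB11. ZBTB2, a repressor of the p53 and CDKN1A pathway, was at 59.3, 56.6 and 54.7 CPM with GFP and at 70.9, 66.2 and 75.4 CPM with RfA1. The groups did not overlap, with a log2 fold change of 0.32 and a standard error of 0.09 (edgeR adjusted p = 0.221). ZBTB21, a repressor that pairs with other ZBTB proteins, was at 47.4, 42.2 and 43.6 CPM with GFP and at 55.8, 47.7 and 56.1 CPM with RfA1. Its RfA1 replicate 2 lay just above the highest GFP library, and the log2 fold change was 0.26 with a standard error of 0.10 (edgeR adjusted p = 0.294). ZBTB11, needed for neutrophil development and for mitochondrial gene expression, was at 68.6, 59.5 and 61.5 CPM with GFP and at 82.5, 65.3 and 78.5 CPM with RfA1. Here RfA1 replicate 2 fell inside the GFP range, and the log2 fold change was 0.26 with a standard error of 0.10 (edgeR adjusted p = 0.32).

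ZBTB16 (PLZF), a repressor of blood and germ cell differentiation, was lower in RfA1 cells at a low level. It was at 7.29, 7.50 and 8.12 CPM with GFP and at 5.92, 5.24 and 6.29 CPM with RfA1, and the groups did not overlap. The log2 fold change was -0.39 with a standard error of 0.14 (edgeR adjusted p = 0.294). Without RfA1 replicate 2 it was -0.32 (edgeR adjusted p = 0.174). Here RfA1 replicate 2 was the lowest library, whereas for ZBTB48 it was the highest of its group.

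**Figure D2:**
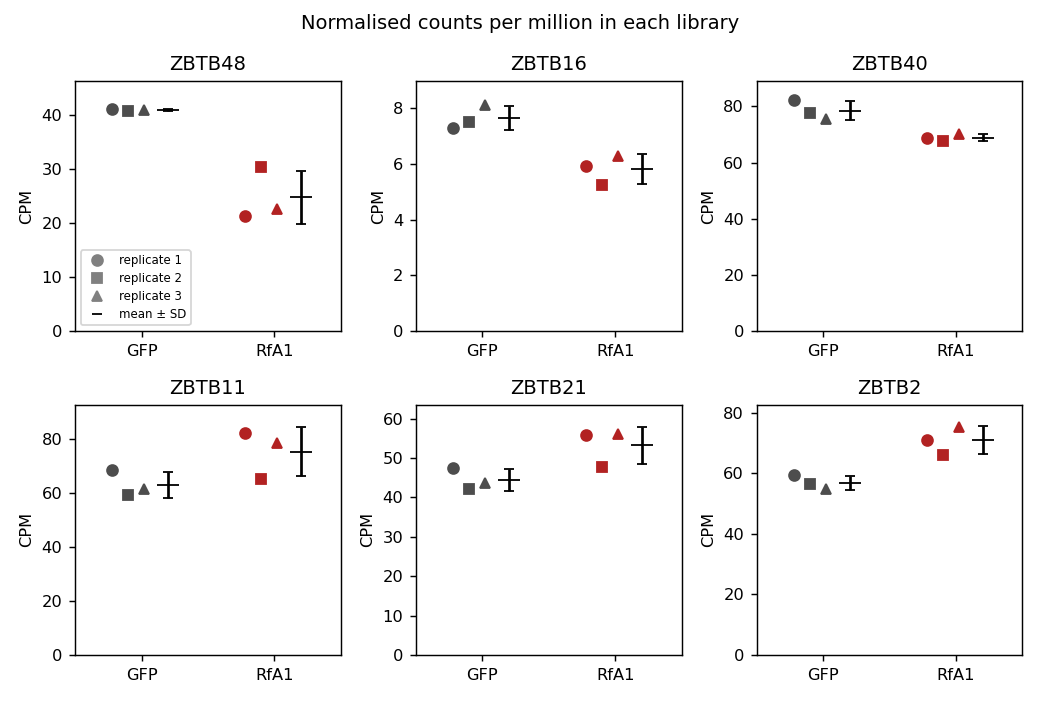
CPM in each library is plotted for ZBTB48 and the 5 other members with an unadjusted p under 0.05, with the mean ± SD of 3 libraries beside the points and axes from 0. ZBTB48, ZBTB16 and ZBTB40 were lower in all 3 RfA1 libraries, ZBTB21 and ZBTB2 higher in all 3, and ZBTB11 overlapped through RfA1 replicate 2.

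Among the other growth regulators, ZBTB17 (MIZ1), the partner through which MYC represses genes, varied most between RfA1 libraries. It was at 40.2, 45.8 and 41.8 CPM with GFP and at 33.9, 50.6 and 29.6 CPM with RfA1. RfA1 replicate 2 was the highest of all 6 libraries and the other RfA1 libraries were the lowest, so that the log2 fold change of -0.16 had a standard error of 0.16 (edgeR adjusted p = 0.647). ZBTB7A, a repressor of fetal globin and of glycolysis genes, was at 70.4, 75.5 and 74.3 CPM with GFP and at 76.1, 92.3 and 77.6 CPM with RfA1. Its lowest RfA1 library lay just above its highest GFP library. The log2 fold change was 0.16 with a standard error of 0.09 (edgeR adjusted p = 0.446). Without RfA1 replicate 2, its highest library, the log2 fold change was 0.07 (edgeR adjusted p = 0.58). Of the 6 members in this role, 5 had a fold change above 0, with a median of 0.13.

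The methyl-CpG binders differed little between the groups. ZBTB33 (Kaiso) was at 64.8, 58.2 and 61.6 CPM with GFP and at 69.5, 57.6 and 73.2 CPM with RfA1, a log2 fold change of 0.12 with a standard error of 0.10 (edgeR adjusted p = 0.592). ZBTB4 was at 57.0, 53.7 and 55.8 CPM against 56.4, 56.3 and 59.9 CPM, and its log2 fold change was 0.05 with a standard error of 0.08. ZBTB38 was at 17.5, 19.5 and 20.0 CPM against 20.3, 15.3 and 21.2 CPM, and its log2 fold change was -0.0024 with a standard error of 0.13. The groups overlapped for all 3, and for ZBTB33 and ZBTB38 RfA1 replicate 2 was the lowest library.

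The 7 members with roles in blood lineages were split, 4 above and 3 below 0, and so were the 6 members with roles in the nervous system and other tissues, 3 above and 3 below. ZBTB7B (ThPOK), the factor of helper T cell fate, was at 41.5, 56.0 and 55.1 CPM with GFP and at 49.1, 53.9 and 44.2 CPM with RfA1, with overlapping groups and a log2 fold change of -0.05 (standard error 0.12). The remaining 15 members had a median of 0.10, with 10 above 0. At the low end of the family, the third-highest count over libraries was 23 for ZBTB20, 31 for ZBTB3 and 46 for ZBTB7C, all inside the rule, and 0 for ZBTB32, the single symbol outside it, which had 1 count in GFP replicate 2.

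Per transcript length, ZBTB48 held the top of the family in GFP cells. Its TPM (the authors' measure of transcript abundance per length) was 28.4, 26.4 and 27.8 with GFP and 15.6, 20.1 and 16.5 with RfA1. It ranked first of the members in each GFP library, and 9th, 5th and 9th in the RfA1 libraries. ZBTB2 was next to it in GFP cells at 26.6 ± 1.53 TPM, a difference within the spread of the libraries, and led in RfA1 cells at 35.0 ± 4.02 TPM. ZBTB17 followed at 23.2 ± 1.05 TPM with GFP and 21.4 ± 5.15 TPM with RfA1, then ZBTB7A at 20.4 ± 0.18 and 23.5 ± 1.11 TPM and ZBTB7B at 20.3 ± 2.88 and 20.4 ± 1.17 TPM. ZBTB7A and ZBTB7B did not differ beyond their spread in GFP cells. The lowest members were ZBTB20 at 0.11 and 0.09 TPM and ZBTB8B at 0.55 and 0.63 TPM. Summed over the family, the TPM was 373, 354 and 368 with GFP and 392, 360 and 398 with RfA1, and the ranges overlapped.

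**Figure D3:**
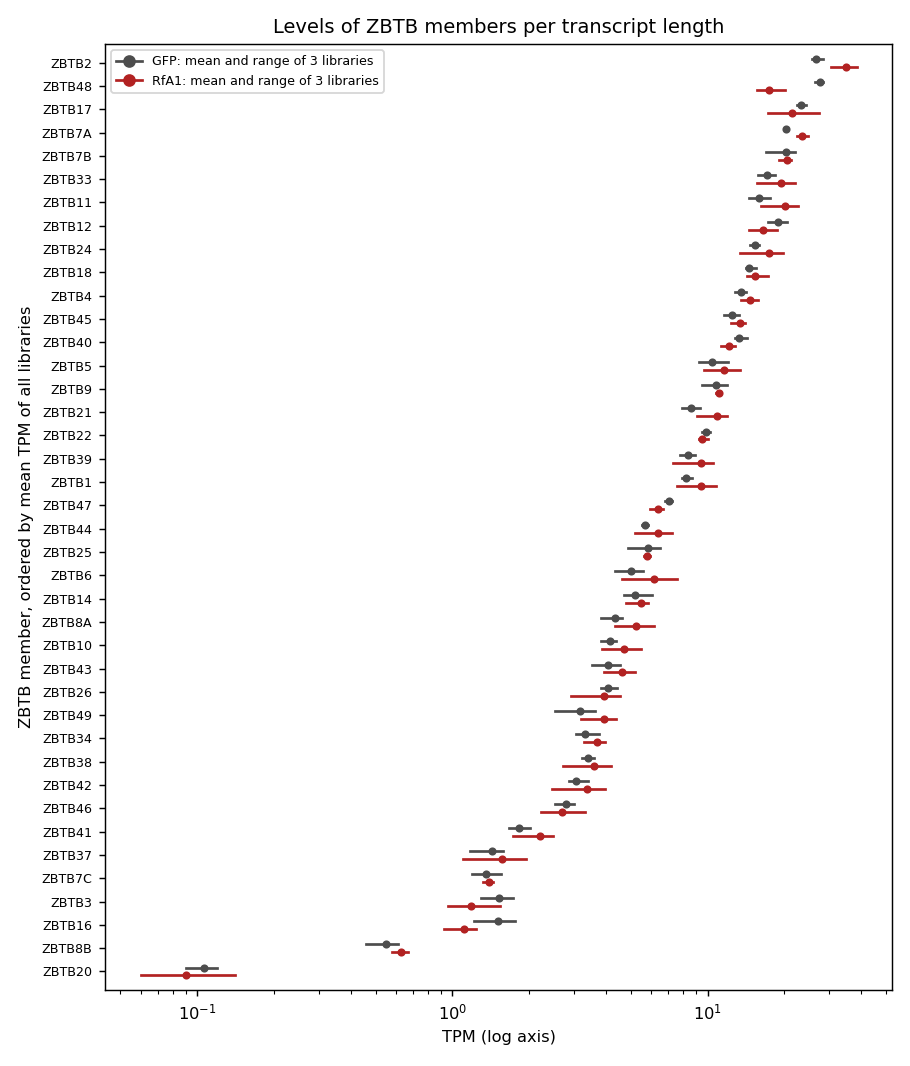
Mean TPM (log axis) of the 40 members in GFP and RfA1 cells, with lines from the lowest to the highest of 3 libraries. For ZBTB48 the GFP mean of 27.5 TPM and the RfA1 mean of 17.4 TPM were apart with no overlap, and ZBTB2 was at 26.6 and 35.0 TPM.

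Fold changes within the family went with the GC content of the transcript, as they did in the whole table. The members ran from 32.5% to 65.4% GC, with a median of 44.2% against 49.2% for all genes tested. The Pearson correlation of log2 fold change with GC content was -0.53 across the 40 members, -0.52 without ZBTB48 and -0.47 across 12917 genes, which share the same 6 libraries. Of the 24 members under 50% GC, 21 had a fold change above 0 (median 0.12). Of the 15 others, ZBTB48 left out, 4 were above 0 and 11 below (median -0.10).

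When each library's smooth trend with GC content was removed, these counts became 13 above and 11 below 0 under 50% GC, and 7 above and 8 below in the others. ZBTB48, at 59.8% GC, then had a log2 fold change of -0.61, the 131st lowest of all genes. Members of like GC content were at -0.39 (ZBTB16), 0.16 (ZBTB7A) and -0.10 (ZBTB22) before this step and at -0.26, 0.28 and 0.02 after it. ZBTB40, at 51.0% GC, was at -0.19 in both. ZBTB2 moved from 0.32 to 0.24, ZBTB21 from 0.26 to 0.14 and ZBTB11 from 0.26 to 0.15. With the correction, ZBTB7A had an edgeR adjusted p of 0.0214 (from 0.00896 to 0.769 over 15 alternatives), and it was the 1 member of the 39 without ZBTB48 past the threshold, where 1.45% of all genes were. The part of GC content in the fold changes beyond this was not tested.

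**Figure D4:**
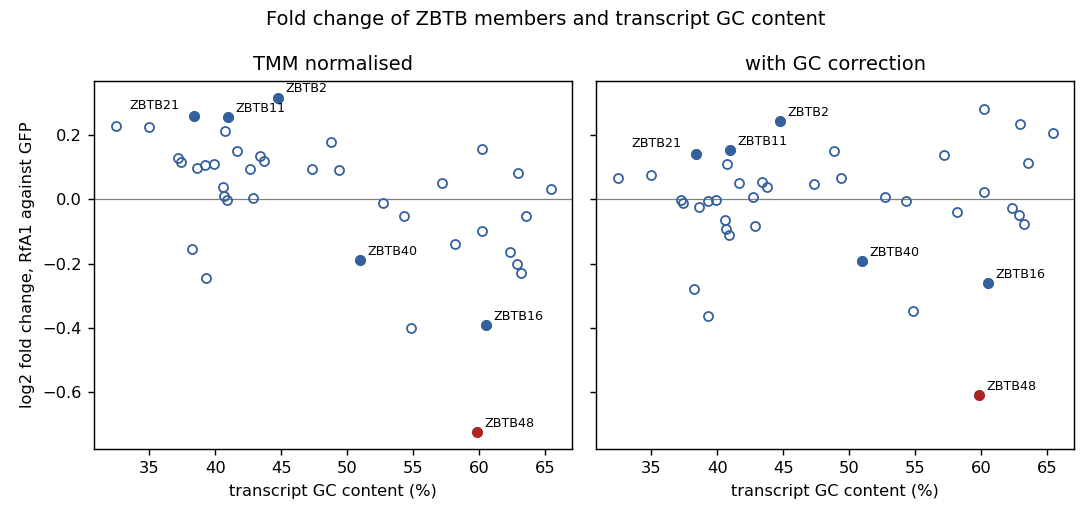
Log2 fold change of each member against the GC content of its transcript (%), before (left) and after (right) the trend with GC content was removed, with ZBTB48 and the 5 other members of an unadjusted p under 0.05 filled and named. The correction removes the trend over all genes by design. Across the members Pearson r was -0.53 before it and -0.00091 after it (-0.52 and 0.12 without ZBTB48). ZBTB48 remained the lowest at -0.61.

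The number of members that passed was highest when RfA1 replicate 2 was left out. Without it, 5 of the 39 members other than ZBTB48 had an adjusted p under 0.05, where 20.1% of all genes did (8.56% higher and 11.5% lower). ZBTB2, ZBTB11 and ZBTB21 were then higher with RfA1, with log2 fold changes of 0.36, 0.35 and 0.33 (edgeR adjusted p = 0.00614, 0.00823 and 0.0128). ZBTB17 and ZBTB12 were lower, at -0.42 and -0.38 (edgeR adjusted p = 0.00822 and 0.0296). Over the 15 alternatives the adjusted p ran from 0.00614 to 0.709 for ZBTB2, from 0.00823 to 0.787 for ZBTB11, from 0.0128 to 0.762 for ZBTB21 and from 0.00822 to 0.994 for ZBTB17. Without this library the Pearson correlation of the members' fold changes with GC content was -0.71, against -0.60 across 13039 genes.

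Across the 6 libraries, the members whose log2 CPM followed ZBTB48 most closely were ZBTB47 (Pearson r 0.89), ZBTB40 (0.81) and ZBTB22 (0.78), as a description over libraries that differ in GC trend and group. On chromosome 1, the tested genes beside ZBTB48, chosen after their values were seen, did not show a difference as large as its own. Since ZBTB48 was picked for its difference, nothing is read from this. KLHL21, 1444 bases away, was at 69.2, 85.4 and 75.0 CPM with GFP and at 73.3, 81.8 and 71.7 CPM with RfA1. TAS1R1, which ends 244 bases before ZBTB48 on the same strand, had at most 2 counts in a library. NOL9, PHF13, THAP3 and PLEKHG5 had log2 fold changes of 0.08, 0.02, -0.22 and -0.13, each with overlapping groups. THAP3 overlapped only through RfA1 replicate 2, at 30.7, 36.8 and 33.9 CPM with GFP and 24.8, 37.7 and 24.8 CPM with RfA1.

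ZBTB48 overlaps no other gene in the annotation. In 8 members the gene overlaps another gene of the table, namely ZBTB1 and ZBTB25, which share 1502 bases on opposite strands, ZBTB12, which lies inside C2, and ZBTB7B, ZBTB8A, ZBTB9, ZBTB24 and ZBTB38. Whether the counting used strand is not given in the sources used here, so that these members are uncertain. Of neighbouring members, ZBTB26 and ZBTB6, 2.24 kb apart on chromosome 9, had log2 fold changes of -0.15 and 0.23. Their standard errors were 0.14 and 0.15, and the groups overlapped for both. The other close pairs had fold changes of the same sign. These were ZBTB1 and ZBTB25 (0.13 and 0.04), ZBTB8A and ZBTB8B (0.21 and 0.14), ZBTB43 and ZBTB34 (0.12 and 0.09), and ZBTB22 and ZBTB9 (-0.10 and -0.01).

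The other telomere genes were read beside ZBTB48. Of 29 in shelterin, telomerase and telomere maintenance, 0 passed the adjusted p with edgeR, DESeq2 or limma, and the median log2 fold change was -0.02. With edgeR 7 had an unadjusted p under 0.05 (3 higher, 4 lower). This is 24.1% of them, against 13.9% of all genes (7.3% higher, 6.64% lower). With the GC correction 5 did (3 higher, 2 lower), or 17.2%, against 15.9% of all genes (8.13% higher, 7.8% lower). The log2 fold changes of the 29 then lay between -0.24 and 0.24, and 0 passed the adjusted p. Without RfA1 replicate 2, 7 passed the adjusted p (2 higher, 5 lower), in a setting where 20.1% of all genes did. Within shelterin, the complex that caps telomeres, TERF2IP (RAP1) was at 76.4 ± 4.61 CPM with GFP and 87.5 ± 2.40 CPM with RfA1, while ACD (TPP1), which recruits telomerase, was at 48.1 ± 2.69 and 40.4 ± 2.67 CPM. TINF2, also of shelterin, was at 25.3 ± 0.66 and 21.8 ± 1.35 CPM. The telomerase assembly factor NAF1 was at 38.5 ± 0.81 and 45.8 ± 4.34 CPM. NHP2, also listed under telomerase, was at 410 ± 33.5 and 349 ± 49.5 CPM, with overlapping groups. WRN, a helicase that resolves telomeric structures, was at 22.8 ± 3.05 and 29.1 ± 3.15 CPM, a log2 fold change of 0.35 (edgeR adjusted p = 0.279). No gene of these lists was as far below 0 as ZBTB48, the lowest being PIF1 at -0.28. But ZBTB48 was chosen for its lower level in this contrast, and 1.98% of all genes were at -0.5 or lower. Nothing is therefore read from this gap. PIF1 was at 19.3 ± 1.57 CPM with GFP and 15.9 ± 1.34 CPM with RfA1.

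**Figure D5:**
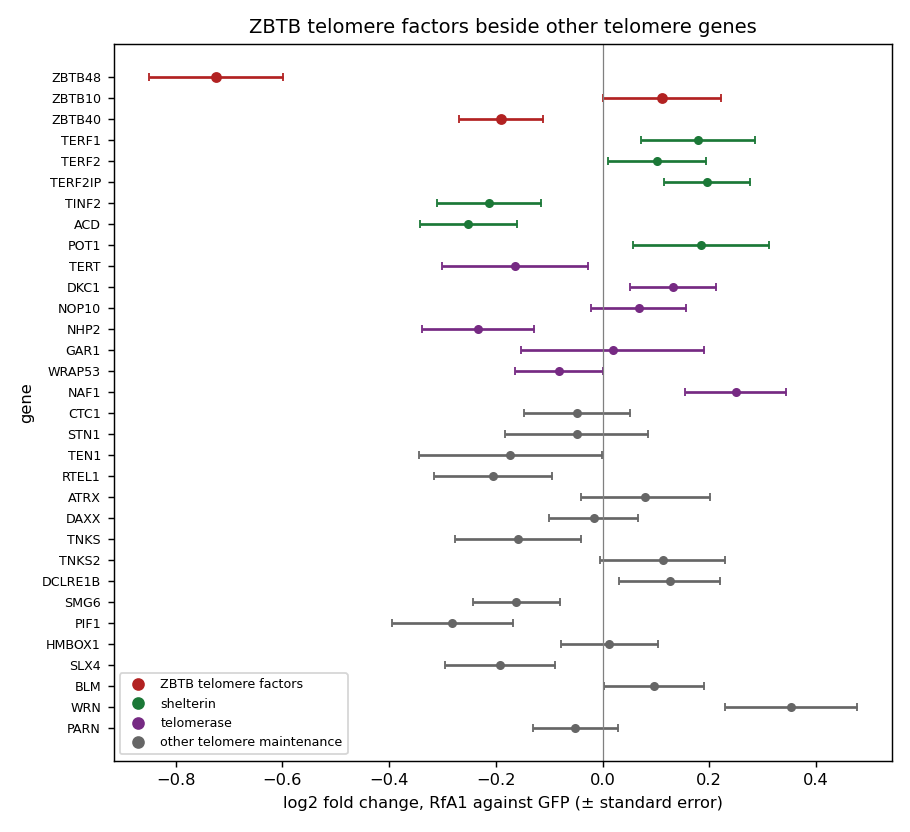
Log2 fold change (± standard error) of the ZBTB telomere factors and of 29 other telomere genes, coloured by group. ZBTB48, chosen for its lower level in this contrast, stood at -0.72, and the other genes lay between -0.28 (PIF1) and 0.35 (WRN).

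Genes reported as targets of ZBTB factors were listed from general knowledge, and 6 of 10 were tested. MTFP1, a mitochondrial fission gene that ZBTB48 activates, was at 57.8, 60.4 and 59.7 CPM with GFP and at 57.1, 61.1 and 54.2 CPM with RfA1, with overlapping groups and a log2 fold change of -0.04 (standard error 0.08). CDKN1A, the p21 cell cycle inhibitor that several members repress, was at 25.7 ± 3.46 and 33.2 ± 0.47 CPM, a log2 fold change of 0.37 (edgeR adjusted p = 0.25). CDCA7, which ZBTB24 activates, was at 110 ± 7.27 and 138 ± 9.98 CPM, a log2 fold change of 0.33 (edgeR adjusted p = 0.221). Of the 6 targets, 0 passed the threshold with edgeR, DESeq2 or limma. CDKN1A and CDCA7 were the 2 with an unadjusted p under 0.05 in edgeR (33.3%), against 13.9% of all genes. The GC correction put CDKN1A past the threshold, at a log2 fold change of 0.47, where 1.45% of all genes were. Without RfA1 replicate 2 there were 3 targets past the threshold, where 20.1% of all genes were. Among 15 corepressor and ligase partners of BTB domains, 0 passed with edgeR, DESeq2 or limma, 6 passed without RfA1 replicate 2 (20.1% of all genes), and 3 (20.0%) had an unadjusted p under 0.05 in edgeR, against 13.9% of all genes. These were TBL1XR1 at 0.28 and CUL3 at 0.23, both higher, and GPS2, a subunit of the NCOR complex, which was lower at -0.32 (edgeR adjusted p = 0.234). The groups overlapped for CUL3. With the GC correction TBL1XR1, CUL3 and GPS2 were at 0.13, 0.11 and -0.21.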

How the data were processed

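Members, gene lists and tests were chosen with earlier results of these data known, and the motifs and the neighbours of ZBTB48 after the values were seen. Per the submitters' processing notes, reads were handled with HISAT and GRCh38.p13, and the counting tool and its strand setting are not given in the sources used here. The authors deposited, per gene and library, estimated counts without normalization, of which 7.39% to 8.02% per library were not whole, and TPM, whose total is equal in the 6 libraries. The authors' FPKM and replicate averages were not used.

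After rounding, filterByExpr of edgeR 4.0.16 (at least 10 counts, total at least 15) left 13002 genes, all 40 members among them. TMM normalization and the robust quasi-likelihood test were run in R 4.3.3, two-sided, with Benjamini-Hochberg adjustment over all tested genes and a threshold of 0.05. Counting error enters through counts of 10272304 to 11566287 per library. The biological coefficient of variation was 8.83%. The GC correction was a spline with 5 degrees of freedom per library on the GC content of 1 GENCODE 29 transcript per gene (98.3% matched), used as an offset. Coordinates of genes are those of GENCODE 29 on GRCh38, and promoters are from RefSeq GRCh38.p14. The alternatives were upper-quartile or total-count scaling, other count filters, DESeq2 1.42.0, limma 3.58.1 on log2(TPM + 1), the replicate number as a block, the GC correction, both together, and each library left out in turn.

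Members named with values in each library were the telomere and methyl-CpG factors, those with an unadjusted p under 0.05, and the 5 with the highest mean TPM. The main edgeR fit was also run on simulated counts that held no GC trend and no outlying library. That run cannot speak to the effect of these on the calls. Figures were drawn with matplotlib 3.10.9.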

Additional observations from a re-analysis of the deposited data

How the results depend on the processing

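Without ZBTB48, 0 of the 39 members had an adjusted p under 0.05 in the main fit, with DESeq2 or with no low-count filter. DESeq2 called 0.254% of all genes, and the fit with no filter 0.12%. With the GC correction 1 member did (ZBTB7A), where 1.45% of all genes did. When each library was left out, 0 did, except 5 (ZBTB2, ZBTB11, ZBTB12, ZBTB17 and ZBTB21) without RfA1 replicate 2. ZBTB48 itself, chosen on this contrast, was called with DESeq2, with no such filter, with the GC correction and without RfA1 replicate 2. Counted with ZBTB48, members with an unadjusted p under 0.05 were 2 to 15, against 6 in the main fit. The 15 came without RfA1 replicate 2 (37.5%, against 34.9% of all genes). The members' median log2 fold change was 0.07, and 0.0032 with the GC correction. ZBTB48 was below 0 in each setting run, at -0.71 by total library size, -0.61 with the GC correction, -0.64 by limma on log2(TPM + 1), and -0.90 to -0.63 with a library left out. Over all genes the calls were 10 (8 higher, 2 lower), and 6 (4 higher, 2 lower) by upper-quartile scaling, 20 with no filter, 33 by DESeq2, 4 by limma, 188 with the GC correction and 0 to 2636 with a library left out, the last without RfA1 replicate 2.

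With the replicate number as a block, 625 genes (4.81%) and 2 members (ZBTB2 and ZBTB48) were called, and with the GC correction as well 385 genes (2.96%) and 3 members (with ZBTB7A). The log2 fold change of ZBTB48 was then -0.73 and, with both, -0.61, and the members' median with both was 0.0034. Same-numbered libraries correlated at 0.17, 0.32 and -0.14 in their deviations from the group means, not all above 0.1, so that a shared origin of same-numbered libraries was not taken as shown; the mean was 0.115 for same and -0.061 for other numbers, and 3 libraries correlated best with their own number.

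Directions turned for 4 named members close to 0. ZBTB38 was at 0.017 by total library size, 0.000064 with no filter, 0.044 by limma and -0.092 to 0.13 with a library left out. ZBTB33 was at -0.012 and ZBTB10 at -0.00048 with the GC correction, and at -0.012 and -0.0014 with the block as well. ZBTB7B was at 0.11 with the GC correction, with or without the block, at 0.017 by limma, and at -0.18 to 0.023 with a library left out. The cause was not tested. ZBTB3 and ZBTB20 had the fewest counts, 13 to 37 per library.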

Other observations

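Relatives outside the ZBTB symbols were counted in the same way. Of 415 genes named ZNF, which share the zinc fingers, 177 had a fold change above 0 and 238 below, with a median log2 fold change of -0.04, and 63 (15.2%) had an unadjusted p under 0.05 (19 higher, 44 lower), against 13.9% of all genes (7.3% higher, 6.64% lower). Their median GC content was 43.5%, close to that of the ZBTB members at 44.2%, whose median was 0.07. With the GC correction the median was -0.07 for the ZNF genes (139 above and 276 below 0) and 0.0032 for the ZBTB members. Of 28 genes named KLHL, which share the BTB domain with kelch repeats, 16 were above 0 and 12 below, with a median of 0.0038 and 3 (10.7%) at an unadjusted p under 0.05. In both groups 0 genes reached an adjusted p under 0.05 with edgeR. With DESeq2 1 ZNF gene did, where 0.254% of all genes did, and 8 with the GC correction, where 1.45% did. Without RfA1 replicate 2, 69 ZNF genes (20 higher, 49 lower) and 5 KLHL genes did, where 20.1% of all genes did, and 212 ZNF genes were above 0 and 203 below. The difference between these groups and the ZBTB members was not tested. The 8 BTB zinc finger genes under other symbols, such as BCL6 and GZF1, had a median of 0.05, and GZF1 was at 36.1 ± 2.35 CPM with GFP and 41.8 ± 1.81 CPM with RfA1. Of 7 other methyl-CpG readers, 0 passed the adjusted p with edgeR, DESeq2 or limma, and 0 had an unadjusted p under 0.05 with edgeR. Without RfA1 replicate 2, 1 of them passed the adjusted p (MBD3, lower), where 20.1% of all genes did. In that setting 2 (28.6%) had an unadjusted p under 0.05, against 34.9% of all genes. The median of the 7 readers turned from 0.08 to -0.05.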
